A study of Mus musculus with 20 samples.

Results

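The genes examined were 84 cell adhesion genes, out of 9230 genes for which the array held a probe with a single gene symbol. The rule that chose them used the symbol and no measured value, but it was set with earlier results of these data known. The symbols began with Cdh and a digit, Pcdh, Ctnna, Ctnnb, Ctnnd, Itga, Itgb, Nrxn, Nlgn, Ncam, L1cam, Cntn and a digit, Cntnap, Cadm, Nrcam, Icam or Vcam. They comprised 17 cadherins, 18 protocadherins, 8 genes with a catenin symbol, 12 integrin alpha subunits, 11 genes with an integrin beta symbol, 2 neurexins, 7 contactins and contactin-associated proteins, and 9 other immunoglobulin adhesion molecules. No gene with an Nlgn or Nrcam symbol entered the list. The 84 genes had 85 probes, and for Itgb2l, the gene with 2, the brighter probe was used. All 84 had enough values to be tested.

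Total RNA came from a pool of adult C57/B6 mouse retina and from a pool of Swiss-Webster mouse cortex taken at postnatal day 1, and the design served to measure variation within a platform and across sites. Each pool was labelled with biotin and hybridised to CodeLink arrays, a 1-colour platform, with 5 retina and 5 cortex arrays at a first site and again 5 and 5 at site 2. The pools differed in tissue, strain and age together, which cannot be told apart. Arrays of a group were technical replicates of the same RNA, so that a p-value measures the spread between arrays and not between animals. In RNA of whole tissue, fewer cells of a type and less RNA per cell cannot be told apart. Values are intensities without a unit, scaled so that array medians lay between 0.927 and 0.963, and group levels are geometric means. A gene was called when its adjusted p in limma was under 0.05 and its difference was at least 2-fold. Levels were compared within a probe, never between probes of different genes. Sums over the probes of a marker list weigh its brightest probes most and were set only against the same sum in another group.

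The pools carried the markers of their labels. All 12 photoreceptor genes tested were called higher in retina at both sites, and all 11 cortical neuron genes were called lower. Of 10 genes of dividing cells, 9 were lower in first-site retina, 8 were lower in site 2 retina, and none was higher. Blank values numbered 152 to 217 on site 2 arrays and 22 to 39 on first-site arrays, out of 10500 probes, and 11 of the blanks fell on adhesion genes. A single cortex array stood apart, replicate 5 of site 2. On it 15 of the 84 genes lay more than 2-fold from the mean of the other 4 cortex arrays, against 0 to 8 genes on each of the other arrays. Over all probes the share was 9.11% on that array and 1.81% to 4.69% on the others. The largest departures were those of Ctnnd1, which read 0.0236 there and at least 2.17 on the other 4, and of the dim integrin probes Itga2 (2.35 there and at most 0.0749 elsewhere) and Itgav (2.14 and at most 0.0564). Site 2 calls of adhesion genes that depend on this array are given with and without it, and so are the uncalled differences that it carried.

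Cadherins are calcium-dependent receptors that mostly bind their own kind on a neighbouring cell, and catenins link their tails to the actin cytoskeleton. Protocadherins form a large related family in which members of the gene clusters give neurons distinct surface identities. Integrins are heterodimers of an alpha and a beta subunit that bind laminins, collagens and other matrix proteins, or, on leukocytes, immunoglobulin-type ligands on vessels. Contactins, L1-type proteins and NCAMs are immunoglobulin receptors of axons, while neurexins and the Cadm (SynCAM) proteins span the synaptic cleft. In developing cortex these families take part in migration, layering and axon growth, and in retina in lamination and in synapse formation in the plexiform layers.

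Most of the adhesion genes that differed were lower in retina. At the first site 5 of the 84 genes were called higher in retina and 18 lower. Together these made up 27.4% of the genes, against a background of 24.9% over the 10339 probes tested, of which 11.9% were higher and 13% lower. At site 2, 4 were higher and 22 lower (31% of the genes), against a background of 24.6% (11.1% higher and 13.5% lower). The share called was close to the background at the first site and somewhat above it at site 2. The median difference was -0.28 and -0.44 log2 for the 84 genes, and -0.04 and -0.05 for all probes. At both sites 3 genes were higher (background 9.31%) and 16 lower (background 10.5%, and 19.8% in either direction), and 54 were called at neither. Without replicate 5 of site 2 cortex, the site 2 counts were 4 higher and 24 lower. Every gene called at a site had non-overlapping arrays there. At the first site, all 5 retina arrays lay above all 5 cortex arrays for 13 genes and below them for 34, against 26.2% and 27.1% of all probes. At site 2 the numbers were 10 and 30, against 24% and 24.3%.

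**Figure D1:**
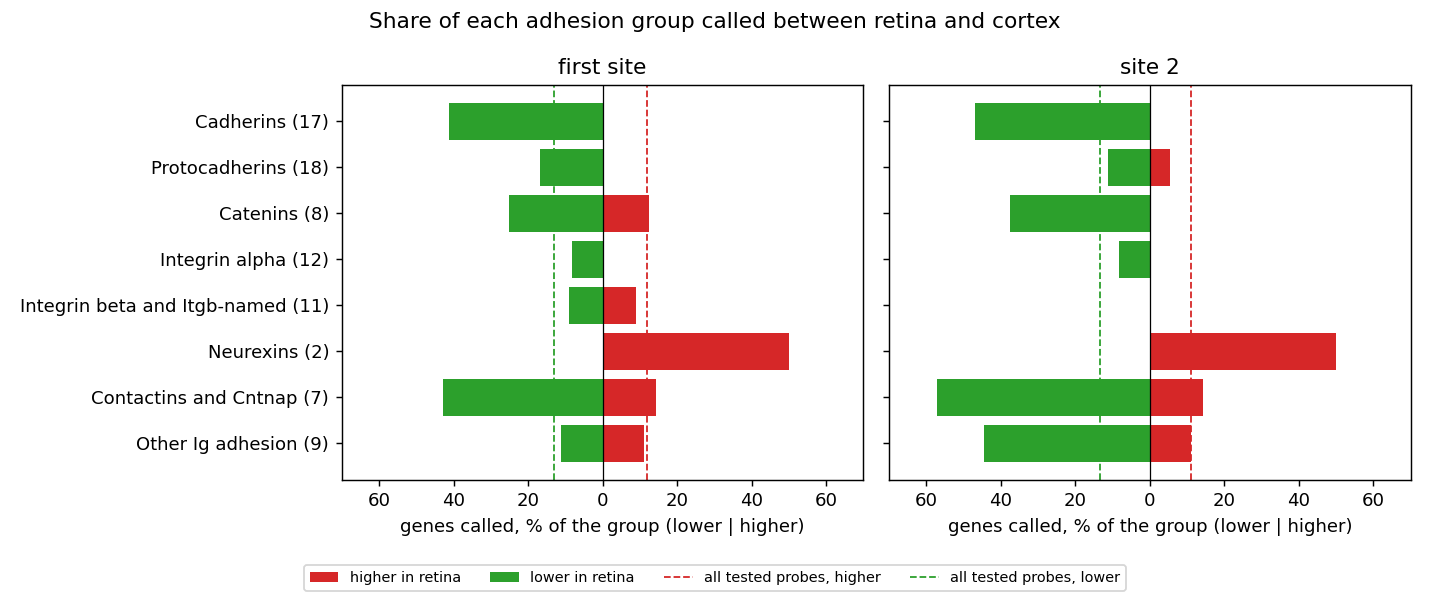
Share of each adhesion group called higher in retina (red, to the right) or lower in retina (green, to the left), in percent of its genes, at the first site (left panel) and at site 2 (right panel), with the number of genes in brackets. The dashed lines mark the share of all tested probes, 11.9% higher and 13% lower at the first site and 11.1% and 13.5% at site 2; the cadherin bars run to the left only, at 41.2% and 47.1%.

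**Figure D2:**
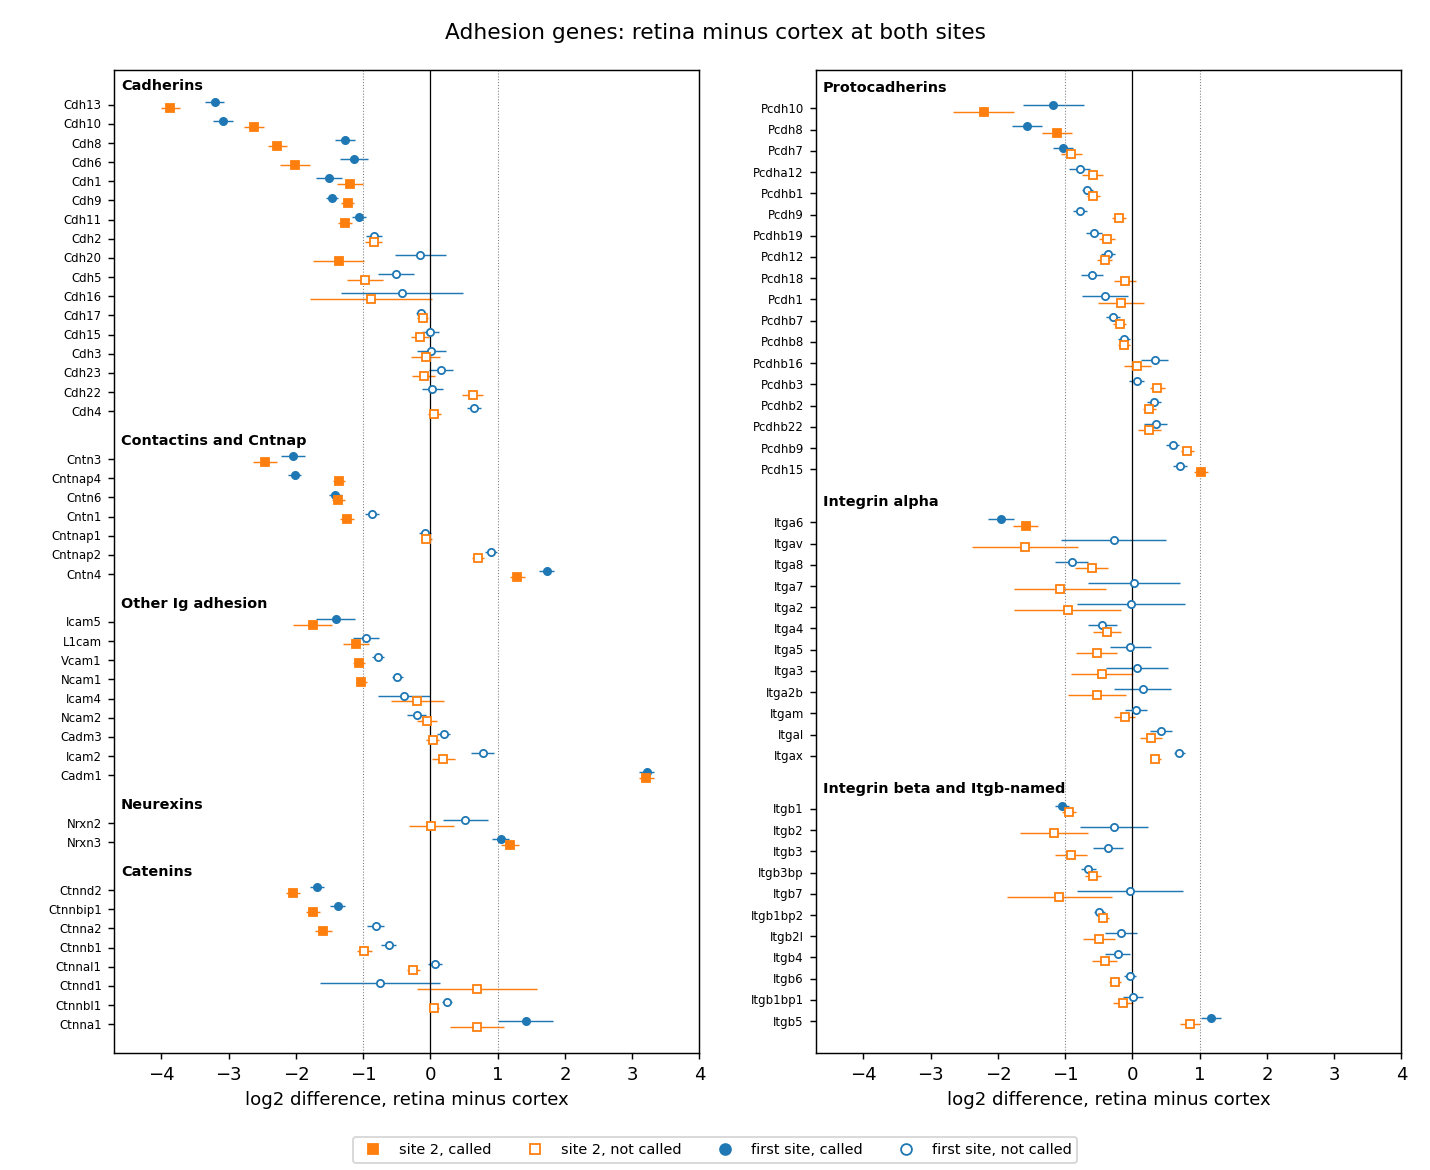
The log2 difference of retina minus cortex for each of the 84 genes, with its standard error as a horizontal bar, at site 2 (squares) and at the first site (circles). Filled symbols are called, dotted lines mark a 2-fold difference, and the genes of a group run from the most negative to the most positive mean; Cdh13 and Cdh10 lie at the far left of their group and Cadm1 at the far right of its own.

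Cadherins gave the largest set of called genes, all of them lower in retina. Of 17 genes, 7 were lower in first-site retina and 8 in site 2 retina, while 0 were higher at either site, with medians of -0.52 and -0.97 log2. That is 41.2% and 47.1% lower, against a background of 13% and 13.5% of all probes. The background of higher calls was 11.9% and 11.1%. Without replicate 5 of site 2 cortex the site 2 count was again 8. Cdh13, T-cadherin, which is held to the membrane by a lipid anchor and lacks the tail that binds catenins, had the largest difference. It read 0.406, 0.255, 0.320, 0.368 and 0.322 on the first-site retina arrays, against 3.01, 2.504, 3.69, 3.32 and 2.86 on the cortex arrays. At site 2 its retina arrays read 0.237, 0.261, 0.281, 0.223 and 0.253 and its cortex arrays 3.16, 4.13, 4.31, 4.198 and 2.79. The highest retina array thus lay far below the lowest cortex array at each site. Cdh13 was 9.24-fold lower in retina at the first site (log2 -3.21, SE 0.14, adjusted p in limma 2.52e-13) and 14.6-fold lower at site 2 (log2 -3.87, SE 0.14, adjusted p in limma 1.49e-14).

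The remaining called cadherins were nearly all type II cadherins, a subfamily with 2 conserved tryptophans in its binding domain that marks neuronal groups in brain. Of 8 type II genes, 5 were lower in retina at both sites, against 10.5% of all probes, and Cdh20 was called at site 2. On first-site arrays Cdh10 averaged 0.226 ± 0.37 in retina, against 1.92 ± 0.11 in cortex (geometric means with the SD in log2 units, n = 5 each), or 8.48-fold lower (log2 -3.08, SE 0.15, adjusted p in limma 1.12e-12). Its site 2 averages were 0.159 ± 0.25 in retina and 0.983 ± 0.14 in cortex (n = 5 each), 6.18-fold lower (log2 -2.63). Cdh8 was 2.42-fold and 4.84-fold lower, Cdh9 2.76-fold and 2.35-fold lower, and Cdh11, a cadherin also of mesenchyme, 2.08-fold and 2.41-fold lower. Cdh6 was 2.21-fold and 4.03-fold lower, from dim levels of 0.106 in retina, against 0.234 in cortex, at the first site and 0.135 and 0.546 at site 2. The Cdh6 and Cdh11 calls at the first site were lost without retina replicate 3 of that site (log2 -0.99 and -0.98), and that of Cdh6 also after quantile normalization (log2 -0.89) or with values floored at the 25th percentile of intensity (log2 -0.28).

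Cdh20 showed how a lone array can carry a call. Its retina arrays at site 2 read 0.330, 0.325, 0.378, 0.394 and 0.241, against 0.556, 0.574, 0.605, 0.603 and 3.76 on the cortex arrays. The last of these is replicate 5, far above the other 4. With it Cdh20 was 2.58-fold lower in retina (log2 -1.37, SE 0.38), and without it the difference was -0.83 (SE 0.13), short of 2-fold and not called. At the first site it differed by -0.15. The other type II genes were Cdh5 and Cdh22. Cdh5, VE-cadherin of endothelial junctions, was dim at 0.0613 in retina, against 0.0876 in cortex, on first-site arrays, and differed by -0.52 and -0.97 (not called, and -1.31 and called at site 2 without replicate 5 of cortex). Cdh22 differed by 0.03 and 0.63.

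Cdh6, Cdh9 and Cdh10 are neighbours on chromosome 15 with no other protein-coding gene between them in the RefSeq annotation of GRCm38.p6, and all 3 were lower in retina at both sites. Their promoter windows, 300 bases that span the transcription start, are shown because these neighbours moved together. The sequences are those of RefSeq on GRCm38.p6, read 5′ to 3′ along each gene's own strand. Cdh6 lies on the minus strand (chr15:13173626-13173925), and Cdh9 (chr15:16728665-16728964) and Cdh10 (chr15:18820079-18820378) on the plus strand. Capitals mark a run of 15 bases that the promoters of Cdh6 and Cdh9 share.
Cdh6: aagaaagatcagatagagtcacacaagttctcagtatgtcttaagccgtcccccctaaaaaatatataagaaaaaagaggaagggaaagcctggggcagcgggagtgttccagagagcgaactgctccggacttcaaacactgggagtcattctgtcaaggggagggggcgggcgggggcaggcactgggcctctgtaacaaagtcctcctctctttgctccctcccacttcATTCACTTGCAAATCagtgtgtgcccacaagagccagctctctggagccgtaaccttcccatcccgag
Cdh9: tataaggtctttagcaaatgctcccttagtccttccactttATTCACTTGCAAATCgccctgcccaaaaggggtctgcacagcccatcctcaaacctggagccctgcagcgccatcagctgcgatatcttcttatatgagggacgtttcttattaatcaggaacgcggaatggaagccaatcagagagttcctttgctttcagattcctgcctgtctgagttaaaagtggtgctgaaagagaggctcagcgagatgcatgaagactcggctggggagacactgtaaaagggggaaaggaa
Cdh10: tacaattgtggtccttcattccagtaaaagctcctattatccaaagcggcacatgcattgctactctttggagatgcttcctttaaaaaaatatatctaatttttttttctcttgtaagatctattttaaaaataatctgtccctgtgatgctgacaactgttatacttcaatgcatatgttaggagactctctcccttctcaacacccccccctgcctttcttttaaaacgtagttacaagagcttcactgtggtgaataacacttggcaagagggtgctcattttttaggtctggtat
The shared run starts 18 bases before the start site of Cdh6 and 209 bases before that of Cdh9, on the same strand. It was taken as the longest run that these 2 promoters share, so both hold it by construction. Among the gene pairs searched, which also took in Cdh8, Cntn3, Cntn6 and Cntn4, it was the longest shared run. Of 32851 promoters in the table, 2 (0.00609%) held it on either strand, those of Cdh6 and Cdh9. How rare other runs of 15 bases are was not tested. The Cdh10 promoter does not hold these letters, and its longest run in common was 11 bases with Cdh6 and 8 with Cdh9. The 3 windows also differed in base composition, at 53%, 48.7% and 37.7% G and C. A match is a description of the letters and not of a binding site.

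The values of the trio were alike in direction. The Cdh9 arrays at the first site ranged from 0.646 to 0.833 in retina and from 1.91 to 2.36 in cortex, and at site 2 from 0.635 to 0.761 (4 arrays with a value) and from 1.45 to 1.80. Cdh10 ranged from 0.163 to 0.315 in retina and from 1.71 to 2.09 in cortex at the first site. Cdh6 ranged from 0.0692 to 0.153 in retina and from 0.185 to 0.299 in cortex there. Retina and cortex arrays did not overlap for any of the 3 at either site. Chromosome 8 holds 8 of the 17 cadherins. Of these, 4 were lower in retina at both sites (Cdh1, Cdh8, Cdh11 and Cdh13), against 10.5% of all probes. Of the adjacent genes Cdh8, Cdh11 and Cdh5 there, the first pair was called and Cdh5 was not, and of the adjacent Cdh3 and Cdh1 only Cdh1 was called, with all arrays in the fit.

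Type I cadherins, the classical epithelial and neural forms, gave 1 call among 5 genes. Cdh1, E-cadherin, was 2.84-fold lower in retina at the first site and 2.29-fold lower at site 2. Its levels were dim, 0.0770 in retina, against 0.219 in cortex, on first-site arrays, and 0.151 and 0.346 at site 2. With a floor at the 25th percentile (0.194) both calls were lost (log2 -0.21 and -0.81). Cdh2, N-cadherin, the main classical cadherin of neural tissue, averaged 2.12 in retina, against 3.79 in cortex, at the first site, and 2.97 and 5.33 at site 2. All retina arrays of Cdh2 lay below all cortex arrays at both sites, yet the differences of -0.84 and -0.85 log2 did not reach 2-fold. Cdh4, R-cadherin, first described in chicken retina, differed by 0.65 and 0.06, Cdh15 by 0.00 and -0.16, and Cdh3 by 0.01 and -0.07. Cdh23, a partner of Pcdh15 in the tip links of hair cells, differed by 0.16 and -0.10, Cdh17 by -0.14 and -0.11, and Cdh16 by -0.42 and -0.88 (SE 0.91 at each site), or -0.05 at site 2 without replicate 5 of cortex.

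**Figure D3:**
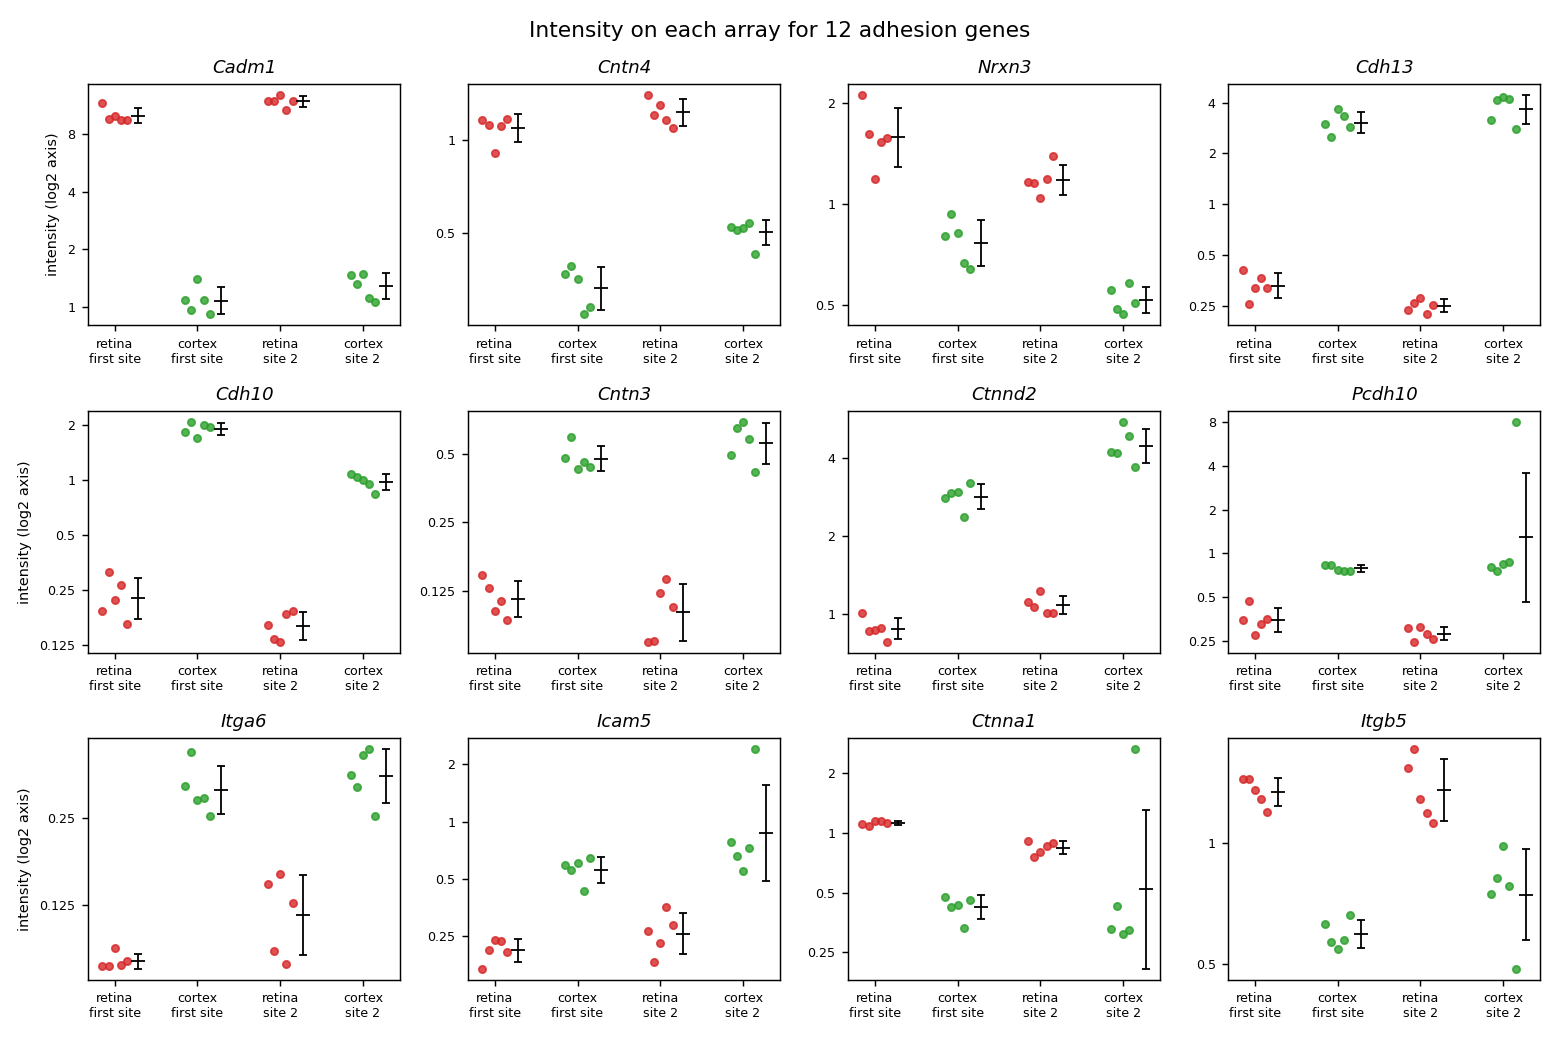
Intensity on every array, on a log2 axis that differs between panels, for 12 adhesion genes, with retina arrays in red and cortex arrays in green. Black bars give the geometric mean and 1 SD of log2 intensity over the 5 arrays; retina lies above cortex for Cadm1, Cntn4 and Nrxn3 at both sites, and single high cortex arrays at site 2 are seen for Pcdh10 (8.05), Icam5 (2.40) and Ctnna1 (2.65).

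Catenin genes were called in both directions at the first site. Of 8 genes, 1 was higher and 2 lower in retina at the first site, and 0 and 3 at site 2 (1 and 4 without replicate 5 of cortex). With all arrays 37.5% were called at each site, against 24.9% and 24.6% of all probes, a gap that rests on few genes. Ctnnd2, delta-catenin, a p120-type catenin found mainly in neurons, read 1.01, 0.863, 0.871, 0.887 and 0.784 on the first-site retina arrays, against 2.80, 2.94, 2.95, 2.38 and 3.22 on the cortex arrays. Its site 2 arrays read 1.12, 1.07, 1.23, 1.01 and 1.01 in retina, against 4.24, 4.202, 5.52, 4.86 and 3.69 in cortex. The groups were well apart, and Ctnnd2 was 3.23-fold lower in retina at the first site (log2 -1.69, SE 0.11, adjusted p in limma 4.60e-11) and 4.11-fold lower at site 2 (log2 -2.04, SE 0.11, adjusted p in limma 2.85e-12). Ctnnbip1, an inhibitor that keeps beta-catenin from TCF factors, was 2.60-fold and 3.36-fold lower. Ctnna2, the neural alpha-catenin, was 3.01-fold lower at site 2 (log2 -1.59) and differed by -0.81 at the first site, where it was not called.

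Ctnna1, the alpha-catenin of most epithelia, went the other way at the first site. It read 1.11, 1.08, 1.15, 1.15 and 1.12 on the retina arrays there, against 0.475, 0.423, 0.433, 0.332 and 0.460 on the cortex arrays. It was 2.67-fold higher in retina (log2 1.41, SE 0.40, adjusted p in limma 0.00502). At site 2 the retina arrays ranged from 0.756 to 0.911, and the cortex arrays read 0.329, 0.428, 0.311, 0.323 and 2.65. The difference was 0.70 (SE 0.40, not called) with replicate 5 of cortex and 1.29 (SE 0.10, adjusted p in limma 3.65e-09) without it. Ctnnb1, beta-catenin, the core link between cadherin and alpha-catenin and a Wnt effector, averaged 7.68 in retina, against 11.8 in cortex, at the first site, and 6.37 and 12.6 at site 2. Its differences were -0.62 and -0.99, and -1.08 at site 2 without that cortex array, which passed the call. Ctnnd1, p120-catenin, differed by -0.75 and 0.69 with an SE of 0.89 at each site, since its probe read 0.0236 on that same array; without it the site 2 difference was -0.64. Ctnnal1 (0.06 and -0.25) and Ctnnbl1 (0.24 and 0.06) were not called.

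Further genes of adherens junctions showed no call. Of 8 cadherin partners tested (Vcl, Actn4, Cttn, Nectin1, Nectin2, Arvcf, Pard3 and Iqgap1), 0 were called at either site in limma, with medians of -0.38 and -0.42 log2. The share of all probes called was 24.9% and 24.6%, and in a list of 8 the gap rests on few genes. The nearest to the threshold was Arvcf, a p120-type catenin, with 1.38 in retina, against 2.49 in cortex, on first-site arrays (log2 -0.86) and 1.57 and 2.68 at site 2 (log2 -0.77). At an adjusted p under 0.05 with no fold threshold, 49 of the 84 adhesion genes differed at the first site and 48 at site 2. Of the 10339 probes tested, 6192 and 6247 did, so that the share of adhesion genes was not above that of all probes.

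Protocadherin calls made up 16.7% of the 18 genes at each site, against a background of 24.9% and 24.6% of all probes. In a family of this size that gap rests on few genes. None of the 10 clustered genes (Pcdha12 and 9 of the Pcdhb genes) was called at either site, and their differences ranged from -0.79 to 0.60 log2 at the first site and from -0.59 to 0.81 at site 2. Among the 8 non-clustered genes 3 were lower at the first site, and 2 were lower and 1 higher at site 2. Whether the clustered and non-clustered genes differ was not tested. The Pcdhb genes are close copies of each other and their probes may share targets, which was not examined here. Pcdh10, a non-clustered protocadherin of axon pathways, read 0.345, 0.470, 0.275, 0.325 and 0.353 on the first-site retina arrays, against 0.834, 0.835, 0.768, 0.754 and 0.749 on the cortex arrays. The retina arrays of site 2 read 0.307, 0.246, 0.310, 0.277 and 0.258 and the cortex arrays 0.810, 0.759, 0.840, 0.866 and 8.05. Every retina array lay below every cortex array, and replicate 5 of site 2 cortex lay far above the rest. Pcdh10 was 2.26-fold lower at the first site (log2 -1.18, SE 0.45, adjusted p in limma 0.0309) and 4.64-fold lower at site 2 (log2 -2.21, SE 0.45), and the site 2 value became 2.94-fold (log2 -1.55, SE 0.11) without that array.

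The first-site call of Pcdh10 had a wide error because its spread was pooled with site 2, and it was lost after quantile normalization (log2 -1.05) and without retina replicate 3 or 4 or cortex replicate 1 or 2 of the first site (log2 -1.09 to -1.16). Pcdh8, the activity-regulated protocadherin arcadlin, was 2.96-fold lower in retina at the first site and 2.17-fold lower at site 2. Its first-site levels were 0.161 in retina and 0.477 in cortex, where replicate 2 read 0.921 and the other 4 at most 0.458. Pcdh7 was 2.05-fold lower at the first site (log2 -1.03) and differed by -0.91 at site 2, a gap that straddles the 2-fold line. Its first-site call was lost after quantile normalization (log2 -0.98) and without retina replicate 2 or 4 (-0.98 and -0.99) or cortex replicate 2 (-0.94).

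Pcdh15, which joins stereocilia and is also found in photoreceptors, was the sole protocadherin called higher in retina, at site 2 (2.04-fold, log2 1.03, SE 0.10). Its retina arrays there ranged from 0.651 to 0.855 and its cortex arrays from 0.315 to 0.417. At the first site the difference was 0.71 and not called, although the arrays did not overlap. Without replicate 5 of site 2 cortex or replicate 4 of site 2 retina, the site 2 value was 0.97 or 0.98, just short of 2-fold. Pcdh9 differed by -0.78 and -0.20, Pcdh12, a protocadherin of endothelium, by -0.36 and -0.41, Pcdh18 by -0.60 and -0.11, and Pcdh1 by -0.40 and -0.17. Of the clustered genes, Pcdha12 was the lowest (-0.79 and -0.59) and Pcdhb9 the highest (0.60 and 0.81), with retina arrays of Pcdhb9 above all cortex arrays at both sites.

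Of the 12 integrin alpha subunits 8.33% were called at each site, and of the 11 genes with an integrin beta symbol 18.2% and 0%. The background was 24.9% and 24.6% of all probes, and in groups of this size the gap rests on few genes. Of 20 subunits 3 were called at either site, and 0 of the 3 binding-protein genes with an Itgb symbol (Itgb1bp1, Itgb1bp2 and Itgb3bp). Most alpha subunit probes were dim: 8 of 12 (Itga2, Itga2b, Itga4, Itga5, Itga7, Itga8, Itgam and Itgav) lay below the 25th percentile of all intensities (0.194) in all 4 groups. Over the 84 genes 15 were that dim, the others being Cdh3, Cdh5, Cdh16, Cdh23, Itgb7, Icam4 and Pcdhb16, and 0 of the 15 were called in retina against cortex with all arrays (Cdh5 was called at site 2 without replicate 5 of cortex). Low signal limits what can be detected for such probes, and a missing call does not show that the pools were alike. Itga8 had an adjusted p in limma of 0.00327 and 0.0385, with differences short of 2-fold, and was called at the first site without retina replicate 4. Itgav, which pairs with several beta subunits, averaged 0.0490 in retina, against 0.0595 in cortex, at the first site. At site 2 it differed by -1.596 with replicate 5 of cortex and by -0.50 without it, neither of them called.

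Itga6, the laminin receptor subunit that pairs with Itgb1 or Itgb4, was the exception among the alpha subunits. It read 0.0773, 0.0770, 0.0889, 0.0781 and 0.08003 on the first-site retina arrays, against 0.322, 0.422, 0.289, 0.292 and 0.254 on the cortex arrays. The site 2 retina arrays read 0.148, 0.0870, 0.160, 0.0785 and 0.127 and the cortex arrays 0.350, 0.318, 0.412, 0.431 and 0.254. The arrays were apart at both sites, though the retina values were dim. Itga6 was 3.88-fold lower in retina at the first site (log2 -1.96, SE 0.19, adjusted p in limma 2.89e-08) and 3.00-fold lower at site 2 (log2 -1.59, SE 0.19, adjusted p in limma 5.32e-07). With a floor at the 25th percentile both calls were lost (log2 -0.68 and -0.84).

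Itgb1, the beta subunit shared by most matrix-binding integrins, averaged 0.807 in retina, against 1.67 in cortex, at the first site, where it was 2.06-fold lower (log2 -1.05, SE 0.11). Its site 2 levels were 0.548 in retina and 1.05 in cortex (log2 -0.94, not called). Without replicate 5 of site 2 cortex that difference was -1.02 and passed the call. Itgb5, the partner of Itgav in the receptor by which pigment epithelium takes up shed outer segments, was higher in retina at the first site. Its retina arrays read 1.44, 1.44, 1.35, 1.28 and 1.19 there, against 0.629, 0.566, 0.545, 0.573 and 0.660 on the cortex arrays, 2.26-fold higher (log2 1.17, SE 0.15, adjusted p in limma 1.20e-06). At site 2 the retina arrays ranged from 1.12 to 1.71 and the cortex arrays from 0.486 to 0.984, without overlap and with a difference of 0.86 that was not called. Markers of pigment epithelium and melanocytes were split. Of 6 tested, 4 were higher in retina at each site, against 11.9% and 11.1% of all probes. The 1 lower gene was Oca2 at the first site and Ttr at site 2. Their summed intensity, to which the Ttr probe added most, ran from 58.6 to 62.4 on retina arrays and from 55.8 to 73.5 on cortex arrays of the first site. At site 2 it ran from 50.5 to 55.0 and from 73.4 to 89.2. The sums thus overlapped at the first site and were higher in cortex at site 2. The part of these cells in the Itgb5 difference was not tested.

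Leukocyte integrins were not called. Itgax differed by 0.70 and 0.34, Itgal by 0.42 and 0.27, Itgam by 0.05 and -0.11, Itgb2 by -0.27 and -1.16, Itgb7 by -0.04 and -1.08 and Itgb2l by -0.17 and -0.50. Replicate 5 of site 2 cortex carried the last 3 site 2 values, with readings of 1.92, 1.76 and 3.02 against at most 0.182, 0.0906 and 0.990 on the other 4 arrays. Without it Itgb2 differed by -0.43, Itgb7 by -0.10 and Itgb2l by -0.17 at site 2. Of 16 microglia and leukocyte markers, 0 were higher and 3 lower in retina at the first site, and 0 and 5 at site 2. Of all probes 11.9% were higher and 13% lower at the first site, and 11.1% and 13.5% at site 2. The summed intensity of these markers ran from 20.8 to 23.5 on retina arrays and from 24.0 to 27.9 on cortex arrays of the first site. At site 2 it ran from 17.6 to 20.8 and from 23.4 to 25.8, and the part of these cells in the integrin values was not tested. Among the rest, Itga3 differed by 0.07 and -0.45, Itga8 by -0.90 and -0.60, Itgb3 by -0.36 and -0.91, Itgb4 by -0.22 and -0.41, and Itgb6 by -0.03 and -0.26. The other alpha subunits differed by between -0.45 and 0.15 at the first site and by between -1.08 and -0.38 at site 2. Without replicate 5 of site 2 cortex, Itga2 differed by 0.15, Itga7 by -0.10 and Itga3 by 0.23 there, so that their site 2 values rested on that array. Itga2b read low on it, at 0.0208 against at least 0.0428 on the other 4 cortex arrays. Without it the Itga2b difference was larger, at -0.91, and was not called.

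Several ligands of integrins differed strongly. Of 18 matrix ligands tested, 1 was higher and 8 were lower in retina at the first site, and 1 and 7 at site 2, with medians of -0.87 and -0.72 log2. The background over all probes was 11.9% higher and 13% lower at the first site, and 11.1% and 13.5% at site 2. Vtn, vitronectin, the ligand of the Itgav and Itgb5 pair, averaged 35.0 in retina, against 2.81 in cortex, at the first site and 30.6 and 2.27 at site 2, which made it 12.5-fold and 13.4-fold higher in retina. Nid1, nidogen of basement membranes, averaged 0.149 in retina, against 2.43 in cortex, at the first site and 0.102 and 1.44 at site 2, 16.4-fold and 14.1-fold lower. Lama2, a laminin chain, was 7.97-fold and 4.74-fold lower. The retina levels of both lay below the 25th percentile of intensity (0.194), where the size of a fold is uncertain. Vtn stood alone among the ligands in being called higher. Connective tissue and meningeal markers moved with the ligands that were lower, with 6 of 8 genes lower in retina at the first site and 8 at site 2 (6 without replicate 5 of cortex). Their summed intensity ran from 1.31 to 1.42 on retina arrays and from 6.22 to 7.13 on cortex arrays of the first site, and from 1.36 to 1.64 and from 6.96 to 19.5 at site 2. Col1a1 belongs to both lists. Their part in these differences or in that of Cdh11 was not tested.

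Genes of the integrin adhesion complex gave 0 calls among 13 at the first site in limma, against 24.9% of all probes there and 24.6% at site 2. Most belong to the part inside the cell that ties integrins to actin, while Cd9, Cd81, Cd151 and Cd47 are membrane proteins. At site 2 Tln2, a talin, was higher in retina (log2 1.42), and Zyx (-1.03), Src (-1.06) and Bcar1 (-1.49) were lower. Without replicate 5 of site 2 cortex the counts were 1 higher and 0 lower. Ilk, the integrin-linked kinase, differed by -0.31 and -0.38, and Tln1 by 0.44 and 0.48.

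Neurexins, presynaptic receptors that bind neuroligins and other partners across the cleft, were represented by 2 genes, and Nrxn3 was higher in retina. It read 2.11, 1.61, 1.19, 1.53 and 1.57 on the first-site retina arrays, against 0.802, 0.932, 0.821, 0.667 and 0.642 on the cortex arrays. The arrays of site 2 read 1.16, 1.16, 1.04, 1.18 and 1.39 in retina, against 0.554, 0.488, 0.469, 0.584 and 0.507 in cortex. No cortex array reached the lowest retina array of its site. Nrxn3 was 2.06-fold higher at the first site (log2 1.04, SE 0.13, adjusted p in limma 1.04e-06) and 2.28-fold higher at site 2 (log2 1.19, SE 0.13, adjusted p in limma 1.86e-07). The first-site call lay close to the threshold and was lost without retina replicate 1 (0.94) or cortex replicate 4 (0.99) or 5 (0.98) of that site. Nrxn2 differed by 0.52 and 0.01, with overlapping arrays.

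Contactins, immunoglobulin receptors of axons held by a lipid anchor, were all 4 called in at least 1 site. Cntn3 read 0.148, 0.129, 0.102, 0.114 and 0.0931 on the first-site retina arrays, against 0.477, 0.589, 0.430, 0.462 and 0.437 on the cortex arrays. Retina arrays of site 2 read 0.0751, 0.0755, 0.122, 0.141 and 0.107 and the cortex arrays 0.491, 0.648, 0.690, 0.581 and 0.415. Retina was the dim group and did not overlap with cortex. Cntn3 was 4.12-fold lower in retina at the first site (log2 -2.04, SE 0.18, adjusted p in limma 9.56e-09) and 5.50-fold lower at site 2 (log2 -2.46, SE 0.18, adjusted p in limma 6.71e-10). Cntn6, known as NB-3, was 2.66-fold and 2.58-fold lower. Cntn1, which also serves at the nodes of myelinated axons, averaged 2.87 in retina, against 5.25 in cortex, at the first site (log2 -0.87, not called) and was 2.36-fold lower at site 2.

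Cntn4 went the other way. It read 1.17, 1.12, 0.911, 1.11 and 1.18 on the first-site retina arrays, against 0.367, 0.390, 0.353, 0.272 and 0.286 on the cortex arrays. At site 2 the retina arrays read 1.41, 1.21, 1.31, 1.17 and 1.10 and the cortex arrays 0.524, 0.513, 0.519, 0.540 and 0.427. Retina was above cortex on every array, 3.31-fold at the first site (log2 1.73, SE 0.11, adjusted p in limma 5.20e-11) and 2.45-fold at site 2 (log2 1.29, SE 0.11, adjusted p in limma 3.78e-09). Cntn4, Cntn6 and Cntn3 lie together on chromosome 6, with no other coding gene between Cntn4 and Cntn6 and with Chl1 alone between Cntn6 and Cntn3 in the RefSeq annotation of GRCm38.p6. Chl1, the close homolog of L1, averaged 0.0516 in retina, against 1.33 in cortex, at the first site and 0.121 and 2.56 at site 2, and was called lower at both. Its retina levels were dim, that of the first site close to the 5th percentile of intensity (0.0445), and the size of its difference is uncertain. Among these neighbours Cntn4 thus opposed the other 3, in contrast to the like direction of Cdh6, Cdh9 and Cdh10.

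Of the contactin-associated proteins, which partner contactins on axons, Cntnap4 was 4.05-fold lower in retina at the first site (log2 -2.02) and 2.56-fold lower at site 2 (log2 -1.36). Its retina arrays ranged from 0.0972 to 0.114 at the first site, where 4 had a value, and from 0.175 to 0.218 at site 2. Cntnap2, which gathers potassium channels beside the nodes, averaged 8.69 in retina, against 4.67 in cortex, at the first site and 7.03 and 4.31 at site 2. Its arrays did not overlap, but the differences of 0.90 and 0.71 fell short of 2-fold. Cntnap1, of the junction between axon and myelin, differed by -0.08 and -0.06.

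Cadm1, the synaptic adhesion molecule SynCAM1, had the largest difference of the 84 genes towards retina. It read 11.7, 9.58, 9.90, 9.48 and 9.50 on the first-site retina arrays, against 1.08, 0.964, 1.40, 1.09 and 0.911 on the cortex arrays. At site 2 it read 11.98, 11.9, 12.9, 10.7 and 11.97 in retina, against 1.47, 1.32, 1.49, 1.12 and 1.06 in cortex. The lowest retina array was several times the highest cortex array. Cadm1 was 9.28-fold higher at the first site (log2 3.21, SE 0.12, adjusted p in limma 1.25e-14) and 9.26-fold higher at site 2 (log2 3.21, SE 0.12, adjusted p in limma 1.35e-14). Its relative Cadm3 differed by 0.20 and 0.03. Among the 84 genes, Cadm1 was alone in passing a 4-fold threshold towards retina at either site.

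Icam5, telencephalin, which is known from dendrites of forebrain neurons, led the other direction in this group. It read 0.169, 0.212, 0.238, 0.236 and 0.207 on the first-site retina arrays, against 0.590, 0.554, 0.603, 0.431 and 0.646 on the cortex arrays. Site 2 retina arrays read 0.267, 0.182, 0.230, 0.355 and 0.287 and the cortex arrays 0.783, 0.660, 0.551, 0.729 and 2.40. Retina lay below cortex throughout, and the last cortex array stood out. Icam5 was 2.65-fold lower at the first site (log2 -1.41, SE 0.29, adjusted p in limma 0.000312) and 3.37-fold lower at site 2 (log2 -1.75, SE 0.29, adjusted p in limma 2.89e-05), or 2.62-fold without that array.

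L1cam, Ncam1 and Vcam1 were called at site 2 and not at the first site. L1cam, a receptor of growing axons, averaged 0.131 in retina, against 0.254 in cortex, at the first site (log2 -0.96) and was 2.15-fold lower at site 2 (log2 -1.10). It lost that call after quantile normalization (-0.87) or with a floor at the 25th percentile (-0.55). Ncam1 differed by -0.49 at the first site and was 2.04-fold lower at site 2 (log2 -1.03), where retina averaged 0.938 and cortex 1.91. The test of the difference between sites gave an adjusted p in limma of 0.0197 for Ncam1, without reaching 2-fold. Vcam1, an endothelial ligand of leukocyte integrins, differed by -0.77 and was 2.08-fold lower at site 2 (log2 -1.06). The site 2 calls of Ncam1 and Vcam1 were lost without cortex replicate 4 (-0.998 and -0.99). Ncam2 differed by -0.21 and -0.05, Icam2 by 0.78 and 0.19, and Icam4 by -0.39 and -0.20. The background was 11.9% of probes higher and 13% lower at the first site, and 11.1% and 13.5% at site 2. Of 11 endothelial markers 2 were higher and 6 lower in retina at the first site and 1 and 5 at site 2 (2 and 5 without replicate 5 of cortex). Their summed intensity ran from 15.3 to 17.5 on retina arrays and from 18.7 to 22.9 on cortex arrays of the first site, and from 15.6 to 17.6 and from 19.3 to 23.8 at site 2. Their part in the values of Vcam1, Icam2 and Cdh5 was not tested.

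Adhesion genes outside the families above were also more often lower than higher. Of 15 further adhesion molecules tested, most of immunoglobulin type, 1 was higher and 7 lower in retina at the first site and 1 and 5 at site 2 (medians -0.76 and -0.35 log2). The background was 11.9% higher and 13% lower, and 11.1% and 13.5% at site 2. The gene called higher was not the same. It was Thy1 at the first site (log2 1.91, and 0.64 at site 2, not called). At site 2 it was the dim Bsg (log2 1.21, and 0.998 at the first site, not called). Astn1, called lower at both sites, is not of that type. After Chl1 the largest differences were those of Alcam, a receptor of growing axons, at 6.89-fold and 5.47-fold lower, and of Cd200, at 5.23-fold and 6.32-fold lower. Mcam, Pecam1, Jam2, F11r and Bsg of this list are not specific to neurons, and Pecam1 is an endothelial marker too. Of 12 synaptic organisers and atypical cadherins, 1 was higher and 3 were lower at each site (1 and 4 at site 2 without replicate 5 of cortex). With all arrays, Dchs1 was called lower at the first site only and Dlg4 at site 2 only. Clstn1, a calsyntenin, was 2.78-fold and 2.64-fold higher in retina, while its relative Clstn2 was 2.99-fold and 2.73-fold lower. Cbln1, a secreted partner of neurexins, was 2.72-fold and 2.81-fold lower.

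**Figure D4:**
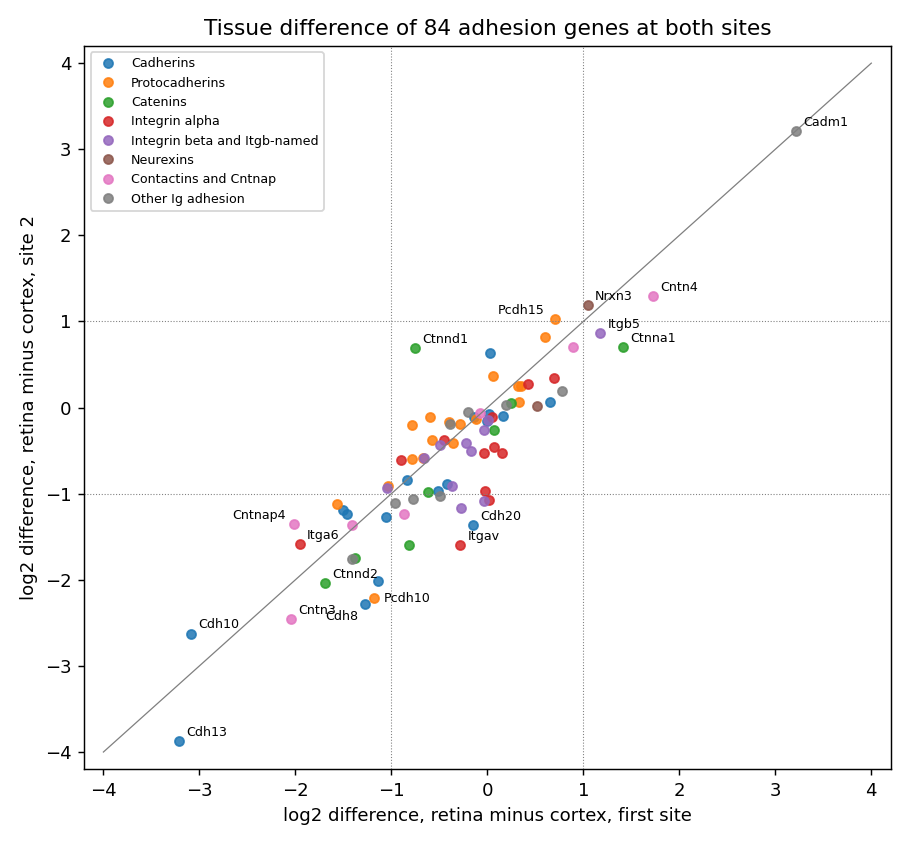
The log2 difference of retina minus cortex at the first site (horizontal axis) and at site 2 (vertical axis) for the 84 genes, coloured by group, with the line of equality and dotted lines at 2-fold. Cadm1 lies on the line at 3.21 and 3.21, Cdh8 and Pcdh10 lie below it, and Ctnnd1 has opposite signs at the sites with all arrays in the fit.

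Whether the difference between retina and cortex itself differed between sites was tested for each gene. For 1 of the 84 genes, Cdh8, it differed between sites by the call rule, against a background of 0.725% of probes. Cdh8 read 0.739, 0.689, 0.611, 0.726 and 0.654 on the first-site retina arrays, against 1.75, 1.42, 1.75, 1.63 and 1.71 on the cortex arrays. At site 2 the retina arrays read 0.415, 0.479, 0.487, 0.386 and 0.389 and the cortex arrays 1.62, 1.90, 1.95, 1.95 and 3.33. Retina was thus further below cortex at site 2, with a change in the difference of -1.004 log2 (SE 0.20, adjusted p in limma 0.00971). That value just met the 2-fold line, and without replicate 5 of site 2 cortex it was -0.83 (adjusted p in limma 0.00143). Leaving out any of 7 further arrays also took it under the line, at -0.95 to -0.99998. With no fold threshold 6 genes differed between sites (Cdh4, Cdh8, Cntnap4, Ctnna2, Ncam1 and Pcdh9), as did 411 of the 10339 probes tested.

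The same RNA also read differently at the sites for a few of these genes. In retina, 4 genes were higher at site 2 and 1 lower, against a background of 6.24% of probes (4.79% higher and 1.45% lower). In cortex, 3 were higher and 1 lower, against 7.21% (5.29% and 1.92%). Ncam2, a relative of Ncam1 known from the olfactory system, was higher at site 2 in both pools. In retina it averaged 8.74 at site 2 (4 arrays with a value) and 3.31 at the first site, 2.64-fold higher, and in cortex 9.04 and 3.81, 2.37-fold higher. Pcdhb19 was lower at site 2 in both pools. It averaged 0.153 at site 2 and 0.360 at the first site in retina (2.34-fold lower), and 0.1996 and 0.535 in cortex (2.68-fold lower). Retina minus cortex, Pcdhb19 differed by -0.57 and -0.38 and was not called.

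Cdh22 (2.38-fold), Pcdh18 (2.04-fold) and Pcdh8 (2.01-fold) were called higher at site 2 in retina and not in cortex, and Cdh6 (2.33-fold) and Cdh16 (log2 2.29, SE 0.91) in cortex and not in retina. For these 5 genes the test of whether the site effect differed between the pools was not called, except for Cdh6 after quantile normalization or with the 25th percentile floor. The Pcdh18 and Pcdh8 calls were lost after quantile normalization (0.75 and 0.79) and without several of the retina arrays (0.94 to 0.99 and 0.91 to 1.00). The Cdh16 call rested on dim and scattered values. Its cortex arrays at site 2 read 0.789, 0.0198, 0.115, 0.0759 and 1.98, and without replicate 5 the difference was 1.45 and not called. Without that array the site counts were 6 in each pool, with Cdh16 gained in retina and Ctnna2, Itga5 and Ncam1 gained in cortex.

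**Figure D5:**
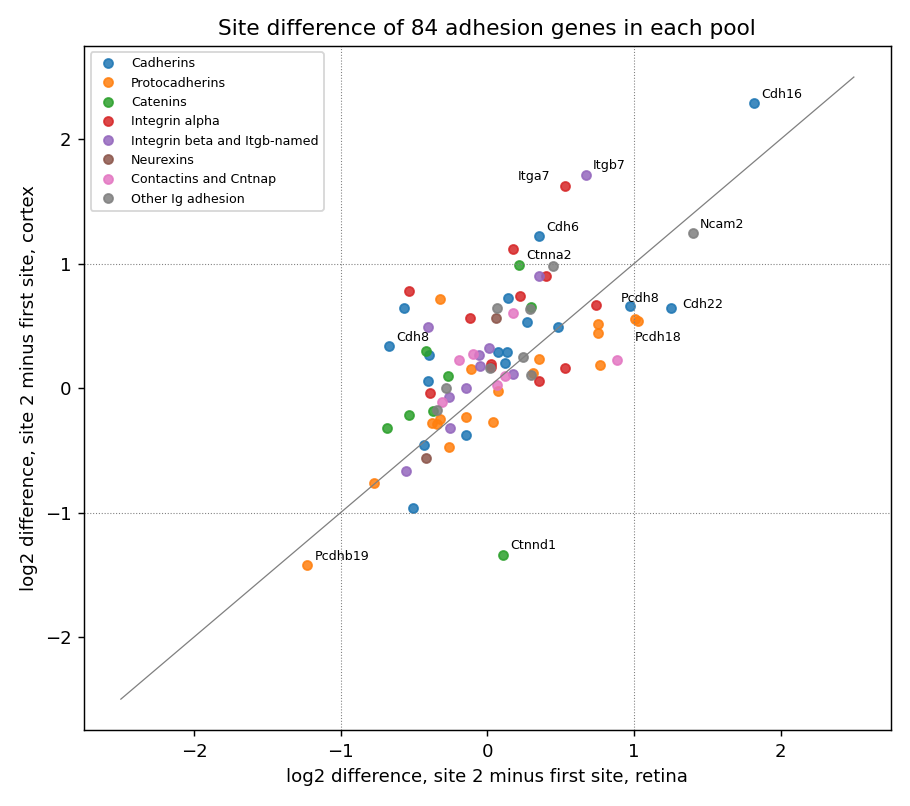
The log2 difference of site 2 minus the first site in the retina pool (horizontal axis) and in the cortex pool (vertical axis) for the 84 genes, coloured by group, with the line of equality and dotted lines at 2-fold. Ncam2 lies beyond 2-fold at the upper right and Pcdhb19 at the lower left, while Ctnnd1 (a low cortex array) and Cdh16 stand off in cortex.

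Spread between arrays was modest for most adhesion genes. The median SD over the 84 genes was 0.18 log2 in first-site retina, 0.20 in first-site cortex, 0.17 in site 2 retina and 0.24 in site 2 cortex, and 0.16, 0.17, 0.16 and 0.23 over all probes. The widest SD was that of Ctnnd1 in site 2 cortex, 2.99. Over the 84 genes the highest SE of a retina minus cortex difference was 0.91, that of the dim probe of Cdh16.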

How the data were processed

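The deposited table held 1 intensity for each of 10500 probes on each of 20 arrays, with 2080 blanks and 143 values at or below 0. The intensities had been scaled by the authors so that array medians were alike, as the deposited values show; no label or header names the scanner software, the background correction or any quality filter. Labelling with biotin followed the CodeLink protocol, per the labels. Probes were named through the platform annotation, and symbols were set against RefSeq by Entrez identifier, with all 84 matched and 0 changed. Where a gene had several probes, that with the highest mean log2 intensity over all arrays was kept.

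The deposited intensities were turned to log2 with no pseudocount, and values at or below 0 were treated as missing. A probe was tested with at least 3 of 5 values in each of the 4 groups (10339 tested, 161 not). The table was fitted whole with limma 3.58.1 (lmFit and eBayes) in R 4.3.3, with 4 group means and 5 contrasts. P-values were adjusted by Benjamini-Hochberg over all tested probes, and a call needed an adjusted p under 0.05 and a difference of at least 2-fold. The code of the fit was run on simulated data with independent normal noise and no site effect. Such data hold no departing array and no site shift, so the run says nothing on those. Array precision is limited by their number, 5 in a group. Figures and promoter searches used Python 3.11.15, pandas 2.3.3, numpy 2.4.6 and matplotlib 3.10.9. Promoters (RefSeq, GRCm38.p6) were matched by symbol for 48 of the 84 genes.

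The adhesion genes, the role groups and the further gene lists were chosen with earlier results of these data known. By rule, array values are given in each role group for the gene with the largest mean difference in each direction among those called alike at both sites. Fold changes are given for up to 3 genes per direction, together with genes called at 1 site or in a site contrast. In each further list, the 2 genes with the largest differences among those called at both sites are named. Array values of other genes, and the other genes named from the lists, were chosen after their values were seen. Alternatives covered scaling, floors, an offset, filters, thresholds, the samples in the fit, a replicate block, the variance model and leaving out each array. Fits without replicate 5 of site 2 cortex by role group were added after its distance from the other arrays was seen.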

Additional observations from a re-analysis of the deposited data

Results flagged for a closer look

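Single arrays lay far from the other 4 of their group in 14 of 140 groups examined (35 genes in 4 groups each). The 35 genes were those called in at least 1 contrast, and some calls, such as that of Cdh20, rested on an outlying array. The chance rate of about 1 in 20 does not hold for genes chosen in this way, so the count is a description. Of the 14, 7 were on replicate 5 of site 2 cortex. On that array Cdh20 read 3.76 (others 0.556 to 0.605), Cdh8 read 3.33 (1.62 to 1.95), Ctnna1 read 2.65 (0.311 to 0.428), Icam5 read 2.40 (0.551 to 0.783) and Pcdh10 read 8.05 (0.759 to 0.866). It was low for Cntn4, at 0.427 (0.513 to 0.540), and for Ncam1, at 1.59 (1.96 to 2.07).

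In first-site retina, Cadm1 read 11.7 on replicate 1 (others 9.48 to 9.90) and Cdh16 read 0.00716 on replicate 4 (0.0333 to 0.0557). Replicate 3 of that group read 0.911 for Cntn4 (1.11 to 1.18), 0.924 for Ctnnbip1 (0.692 to 0.722) and 0.0889 for Itga6 (0.0770 to 0.08003). Cntn1 read 2.49 on replicate 2 of site 2 retina (2.71 to 2.76), and Pcdh8 read 0.921 on replicate 2 of first-site cortex (0.384 to 0.458).

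The retina minus cortex difference of Cdh8 was further from 0 at site 2 than at the first site, by -1.004 log2 (adjusted p in limma 0.00971), and by -0.83 without replicate 5 of site 2 cortex.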

How the results depend on the processing

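Of the 59 gene calls, none changed direction under any alternative run. Among genes that were not called, signs did turn: without replicate 5 of site 2 cortex the site 2 difference was -0.64 for Ctnnd1 (0.69 with it), 0.23 for Itga3 (-0.45) and 0.15 for Itga2 (-0.97). The adhesion genes called higher and lower in retina numbered 5 and 18 at the first site and 4 and 22 at site 2. They numbered 1 and 5, and 1 and 9, with an offset of 0.5 intensity units, 14 and 35, and 11 and 37, with no fold threshold, and 1 and 4, and 1 and 7, at 4-fold. The site difference of retina minus cortex, called for 1 gene, was called for 2 after quantile normalization, 2 with a floor at the 25th percentile, 0 with the offset, 6 with no fold threshold and 0 at 4-fold. Site 2 minus first site in retina, 5 genes, gave 3, 2, 1, 31 and 0 under the same settings. In cortex, 4 genes, it gave 1 with the offset, 2 over probes with a value on all 20 arrays, 34 with no fold threshold and 1 at 4-fold. Leaving out 1 array gave 4 to 5 higher and 15 to 19 lower at the first site, 3 to 4 higher and 22 to 25 lower at site 2, 0 to 1 for the site difference, 4 to 6 for retina and 3 to 6 for cortex. Over all probes the 2 sites had 2574 and 2542 calls, 1303 and 1283 with the offset, 905 and 842 at 4-fold, and 6192 and 6247 with no fold threshold. The offset and the floor shrink differences of dim probes by construction. Of 59 gene calls, the 25th percentile floor lost 10 and quantile normalization 7. Same-numbered retina and cortex arrays did not deviate together (correlations -0.08 to 0.04, 0 of 10 arrays closest to their own number). A replicate block in the fit kept the 59 gene calls, and gave 2573 and 2534 calls over all probes. Dim signal limits 15 genes that lay below the 25th percentile of intensity in all groups.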

Other observations

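Short motifs were counted in the promoters of the 48 adhesion genes present in the RefSeq promoter table (61 promoters, against 32851 in all), on both strands. GGGCGG, the letters of a GC box, was in 47.5% of them, against 35.7% of all promoters. TAATCC, the core bound by the photoreceptor factors Crx and Otx2, was in 4.92%, against 7.06%. CAGATG, an E-box form, was in 9.84%, against 17.2%, and TATAAA in 8.2%, against 13.6%. The median G and C content of these promoters was 58.67%, against 52.67% of all, and motif counts move with base composition.

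The 2 probes of Itgb2l differed in brightness. The brighter averaged 0.899 in retina, against 1.01 in cortex, on first-site arrays and 0.863 and 1.22 at site 2, and the other 0.0763 and 0.0535, and 0.0916 and 0.104.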
